A study of Mus musculus with 3 samples.

Results

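The growth hormone and Stat signaling genes described here are 10 of the 19084 genes read by the arrays of the series. They comprise a pair of receptors (Ghr and Il6ra), the kinase Jak2, the transcription factors Stat3 and Stat5b, the feedback inhibitors Socs1, Socs2, Socs3 and Cish, and the transcriptional repressor Bcl6. They were chosen by gene symbol for their place in the pathway, when earlier results of these data were already known. Counts of them set beside the share of all genes are therefore descriptions only. Together they had 13 probes, with 1 probe for 8 of the genes and several for Ghr and Il6ra, and of several probes the brightest, by its mean log2 value, was used for the gene.

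RNA was measured on 3 single-colour microarrays, 1 per condition. The samples were normal liver of a wild type female mouse, a liver tumor (hepatocellular carcinoma, HCC) of a Gnmt-/- female mouse, and Ymac-1, a mouse cell line that was established from a liver tumor of a Gnmt-/- mouse and grown in DMEM. Gnmt encodes glycine N-methyltransferase, the liver enzyme that disposes of excess S-adenosylmethionine. Age and strain of the tissue donors, and whether the HCC array used the tumor that gave rise to the cell line, were not stated in the sources read here, and no hormone or cytokine treatment is named. With 1 array per condition there was no replicate and no test: every difference below describes 3 RNA samples, and it was counted as higher or lower when it reached 1 on the log2 scale (2-fold). Gnmt itself read 3583 for normal liver, 15.6 for HCC and 56.1 for Ymac-1, which matched the labels.

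Growth hormone binds its receptor Ghr on hepatocytes, which activates the Janus kinase Jak2 and through it the transcription factor Stat5b. Stat5b then switches on genes such as Igf1, Socs2 and Cish, and the Socs and Cish proteins damp the signal in a feedback loop. Interleukin 6 uses a second branch, in which Il6ra joins the shared subunit Il6st (gp130) and Stat3 induces Socs3 and the acute-phase proteins of the liver. Bcl6 represses genes at sites that Stat5 can also bind, and in mouse liver the pattern of growth hormone release keeps many genes at different levels in males and females.

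Stat dimers bind the palindrome TTCNNNGAA, where N is any base, and promoter windows of the genes were searched for it in RefSeq sequence of the GRCm38.p6 build, from 250 bases before to 50 after each start site. The motif reads the same on both strands. A window was found for 9 of the 10 genes, all but Socs2, and several genes had more than 1 window, 12 in all. The motif occurred in 4 of these 12 windows, belonging to 3 genes (Socs3, Cish and Bcl6), against 8.30% of all 32851 windows and 9.55% of the 27025 genes these belong to. The same letters with 4 instead of 3 bases between them occurred in 0 of the 12 and in 6.95% of all windows. The windows of the 3 genes are shown because these genes include the inhibitors whose levels stood highest in HCC relative to normal liver. They cover Socs3 at chr11:117969367-117969616 (minus strand, the 250 bases before a start site that lies within the gene span given below). Cish is shown at chr9:107296409-107296678 (plus strand, 250 bases before the start and the first 20 bases after it). The second window of Bcl6 is shown at chr16:23981284-23981533 (minus strand, the 250 bases before that start, also within the gene span). Capitals mark the motif.
Socs3: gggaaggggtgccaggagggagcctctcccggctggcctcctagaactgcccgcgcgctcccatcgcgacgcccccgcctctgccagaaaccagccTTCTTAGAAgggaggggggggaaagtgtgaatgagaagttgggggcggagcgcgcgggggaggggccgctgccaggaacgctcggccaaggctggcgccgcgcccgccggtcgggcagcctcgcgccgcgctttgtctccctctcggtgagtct
Cish: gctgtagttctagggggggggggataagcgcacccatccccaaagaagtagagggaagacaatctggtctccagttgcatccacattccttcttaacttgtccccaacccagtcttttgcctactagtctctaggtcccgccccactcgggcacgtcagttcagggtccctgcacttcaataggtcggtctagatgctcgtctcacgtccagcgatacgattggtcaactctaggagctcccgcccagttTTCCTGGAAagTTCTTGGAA
Bcl6: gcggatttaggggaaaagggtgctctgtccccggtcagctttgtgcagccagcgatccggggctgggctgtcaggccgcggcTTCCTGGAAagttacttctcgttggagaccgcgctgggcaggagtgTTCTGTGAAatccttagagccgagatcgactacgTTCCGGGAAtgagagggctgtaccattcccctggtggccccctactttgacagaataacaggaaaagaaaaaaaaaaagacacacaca
The Socs3 match began at position -154 from that start site. Cish carried a pair of matches close together, beginning at positions 1 and 12 of the transcript. The Bcl6 window shown held 3 matches, at positions -168, -122 and -88, and its other window held 1 at position -118. A match is a description of the letters, and no binding was measured in these samples.

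Probe values are linear intensities from which the background had been subtracted, and those under 50 were set to 50 before log2 was taken, so that a fold against a reading under 50 is given as a lower bound. The HCC and Ymac-1 arrays were brighter than that of normal liver. Among the 7687 genes above 50 on all 3 arrays, the median log2 difference was 0.65 for HCC over normal liver, 0.06 for Ymac-1 over HCC and 0.72 for Ymac-1 over normal liver. Readings and differences below are as deposited unless a scaling is named. Rescaling the arrays (quantile normalization, median centring or upper quartile scaling, in that order where 3 rescaled values are given) mostly moved HCC over normal liver, where many differences shrank or turned. Where a sentence gives 3 readings without naming the array, their order is normal liver, HCC, Ymac-1. All 10 genes read above 50 in normal liver and HCC, and 9 of them did so in Ymac-1, the exception being Stat3.

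**Figure D1:**
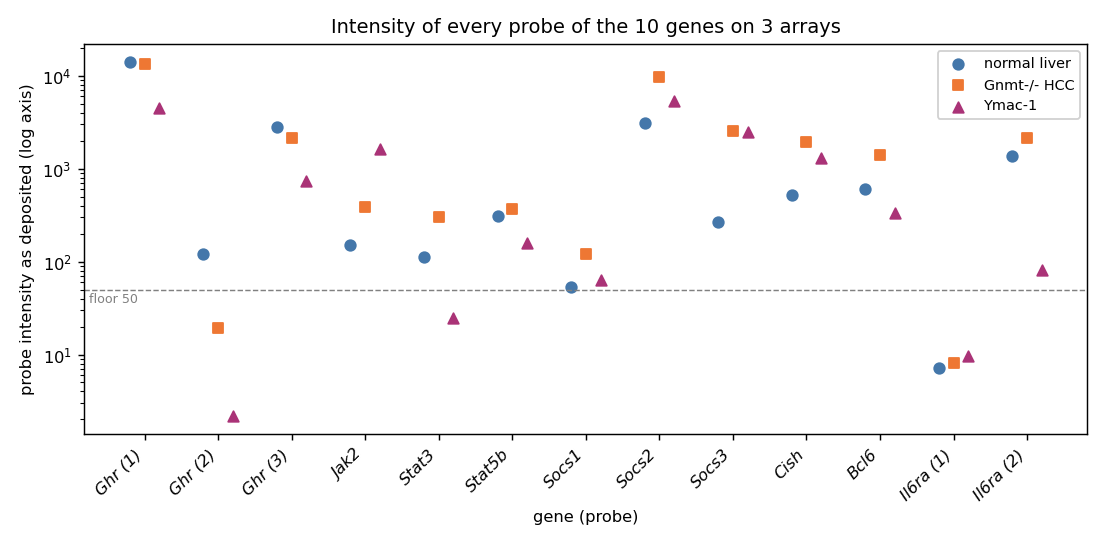
Intensity of all 13 probes of the 10 genes (log axis, background-subtracted), 1 point per array for normal liver, the Gnmt-/- tumor and the cell line, and no error because there is 1 array per condition. Taking the brightest probe of each gene, the HCC point is the highest of the 3 for 8 of the 10 genes and the Ymac-1 point is the lowest for 5.

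With normal liver as the base, 7 of the 10 genes were higher in HCC and 0 were lower, as deposited. They were Jak2, Stat3, Socs1, Socs2, Socs3, Cish and Bcl6, so that all 4 feedback inhibitors were among them while both receptors and Stat5b were not. Over all genes 15.9% were higher and 0.749% were lower. These shares are of 19084 genes, of which 11684 read above 50 on at least 1 array (3028 higher and 143 lower). The remaining genes could not differ as deposited. Shares over all genes, here and below, are thus smaller than shares over detected genes would be. After rescaling 3, 1 and 2 of the 10 were higher, where 4.79%, 2.94% and 5.26% of all genes were, and 0, 2 and 0 were lower, where 3.28%, 11.6% and 3.72% of all genes were. The median log2 difference of the 10 genes was 1.30, against 0.02 over all genes and 0.65 over those above 50 on all 3 arrays. After subtraction of the latter, 3 genes kept a difference of at least 1, namely Socs3 (2.62), Cish (1.26) and Socs2 (1.02).

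With HCC as the base, Jak2 was the 1 gene higher in Ymac-1, and 5 were lower, namely Ghr, Il6ra, Stat3, Stat5b and Bcl6. Over all genes 14.7% were higher and 15.9% were lower in this comparison. The median of the 10 genes was -1.08 on the log2 scale, against 0 over all genes. Against normal liver, the cell line had 3 genes higher (Jak2, Socs3 and Cish) and 3 lower (Ghr, Stat3 and Il6ra), where 23.3% of all genes were higher and 9.41% were lower. The comparisons share arrays in pairs, so that their values are not independent of each other.

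**Figure D2:**
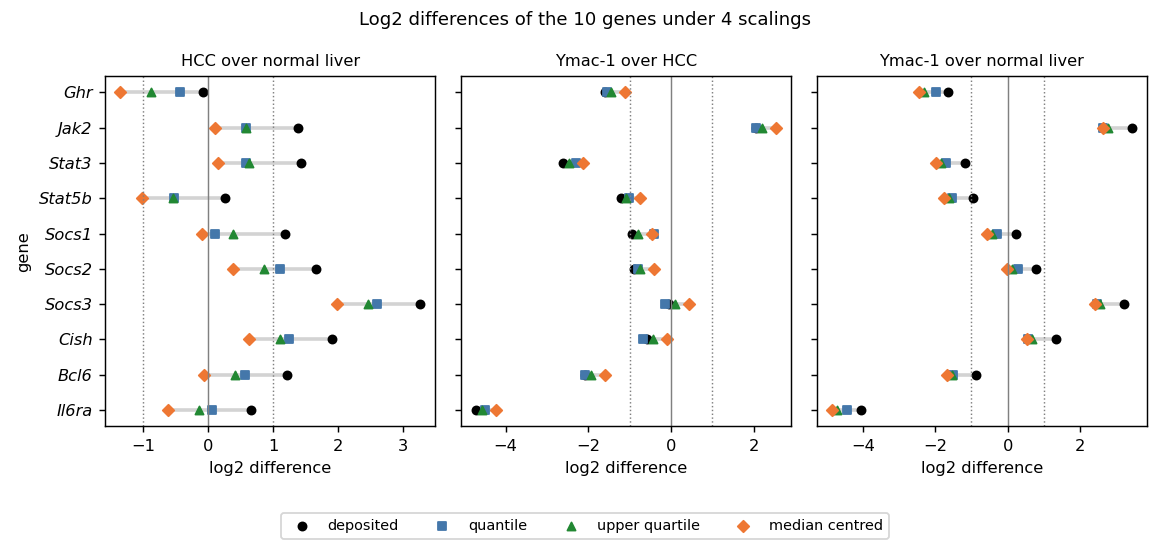
Log2 difference of each gene for HCC over normal liver, Ymac-1 over HCC and Ymac-1 over normal liver, as deposited and under other scalings of the arrays, with lines at the 2-fold threshold. Socs3 lies beyond the threshold for HCC over normal liver under all 4 scalings, and Jak2 on the higher side and Il6ra on the lower side do so for Ymac-1 over HCC.

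Both receptors were lower in the cell line than in either tissue. Ghr (chr15:3317755-3583352, GRCm38.p6 as for all genes below), the growth hormone receptor, read 14201 for normal liver, 13496 for HCC and 4494 for Ymac-1. Both tissues were thus within 1.05-fold of each other, and Ymac-1 was 3.003-fold lower than HCC and 3.16-fold lower than normal liver. A second probe of Ghr read 2832, 2128 and 740.8 and so gave log2 differences of -0.41 between the tissues and -1.52 between Ymac-1 and HCC. The third probe was dim, with 119.6 in normal liver and readings under 50 on the other arrays. Its HCC reading lay 1.26 or more below normal liver on the log2 scale (log2 difference -1.26 with the floor), past the threshold, which the brighter probes did not reach. The comparison of the tissues depended on the scaling, since the main probe gave -1.36 on the log2 scale after median centring.

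Il6ra (chr3:89869324-89913196), the ligand-binding part of the interleukin 6 receptor, read 1358 for normal liver, 2139 for HCC and 81.7 for Ymac-1. Its log2 difference between HCC and normal liver was 0.66, which was under the threshold and close to the 0.65 of the genes above 50 on all arrays, and after rescaling it was 0.05, -0.63 and -0.15, so that its direction turned. Ymac-1 was 26.2-fold lower than HCC and 16.6-fold lower than normal liver, the widest difference among the 10 genes. A second Il6ra probe stayed under 50 on all 3 arrays (7.11, 8.02 and 9.75) and therefore shows no difference in either direction. The shared subunit Il6st, in contrast, read 608.5, 1190 and 769, and as deposited no pair differed by the threshold.

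Jak2 (chr19:29251803-29313095), the kinase attached to Ghr, was the 1 gene of the 10 that was highest in Ymac-1 and lowest in normal liver with both steps beyond 2-fold. It read 149.9 for normal liver, 390.6 for HCC and 1616 for Ymac-1. HCC was 2.60-fold above normal liver, and Ymac-1 was 4.14-fold above HCC and 10.8-fold above normal liver. The step to Ymac-1 was beyond the threshold under all 4 scalings of the arrays, whereas that between normal liver and HCC was so as deposited only and came to 0.10 on the log2 scale after median centring. The relative kinase Jak1, which serves the gp130 receptors, read 3635, 6183 and 6407 and as deposited did not differ by the threshold between any pair.

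Both transcription factors stood lower in the line than in the tumor. Stat3 (chr11:100886806-100939594) read 113 for normal liver, 304 for HCC and 24.7 for Ymac-1. HCC was thus 2.69-fold above normal liver as deposited, which came to 0.14 on the log2 scale after median centring, and Ymac-1 was at least 6.07-fold below HCC and at least 2.26-fold below normal liver. This gene had 1 dim probe, and with readings under 100 set to 100 the difference between Ymac-1 and normal liver was no longer counted. Stat5b (chr11:100780731-100859004), the main Stat of growth hormone signaling in liver, read 312 for normal liver, 373 for HCC and 160 for Ymac-1. HCC was 1.19-fold above normal liver as deposited, but the log2 difference of 0.25 turned to -0.53, -1.03 and -0.55 after rescaling, past the threshold as lower after median centring. Ymac-1 was 2.33-fold below HCC, which came to -0.74 on the log2 scale after median centring and so to less than the threshold. The closely related Stat5a was near the floor on all arrays, with 39.5 for normal liver, 55.1 for HCC and 68.8 for Ymac-1.

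All 4 feedback inhibitors were above normal liver in HCC as deposited (Socs1 not after median centring), and between HCC and Ymac-1 all 4 were within the threshold. Socs3 (chr11:117966079-117970336), the inhibitor induced by Stat3 that binds gp130, read 266 for normal liver, 2561 for HCC and 2483 for Ymac-1. The HCC level was 9.62-fold and the Ymac-1 level 9.33-fold that of normal liver, and HCC and Ymac-1 were within 1.03-fold of each other as deposited. After rescaling the log2 difference of Ymac-1 over HCC was -0.15, 0.44 and 0.10. Socs3 was the 1 gene of the 10 that was higher in HCC under all 4 scalings, with log2 differences from 1.98 to 3.27. Il6ra and Stat3, which act upstream of Socs3, were lower in the line than in the tumor, and a relation of these levels to Socs3 was not tested.

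Cish (chr9:107296659-107302784), a Stat5 target that blocks Stat5 docking sites on receptors, read 515 for normal liver, 1940 for HCC and 1295 for Ymac-1. These levels were 3.77-fold and 2.51-fold that of normal liver, and the former held under all scalings but median centring, where it was 0.63 on the log2 scale. The difference between Ymac-1 and normal liver was beyond the threshold as deposited only. Socs2 (chr10:95383903-95417321), which marks Ghr for degradation, read 3088 for normal liver, 9835 for HCC and 5328 for Ymac-1. HCC was 3.18-fold above normal liver, a difference that shrank to 0.87 and 0.39 on the log2 scale after upper quartile scaling and median centring. Socs1 (chr16:10783808-10785536), an inhibitor of the Jak kinase domain, was close to the floor throughout, with readings of 53.2, 121 and 62.9. Its 2.27-fold difference between HCC and normal liver turned to -0.10 on the log2 scale after median centring.

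Bcl6 (chr16:23965050-23988866) read 602 for normal liver, 1401 for HCC and 331 for Ymac-1. HCC was 2.33-fold above normal liver as deposited, but the difference was 0.58, -0.06 and 0.41 on the log2 scale after rescaling. Ymac-1 was 4.23-fold below HCC, and this difference held under all 4 scalings, at -1.60 or beyond.

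The genes whose pattern over the 3 arrays lay nearest to those of the widest-ranging members were sought among 7686 other genes above 50 on all arrays, by the distance between centred log2 values. For Il6ra they were Cd302 (distance 0.10, readings of 2420, 3514 and 133) and Prodh (distance 0.13), and 9 genes lay within 0.25. For Jak2 they were Armcx2 (104.6, 279 and 1151) and Kctd10 (499.8, 1270 and 5282), both at a distance of 0.03, and 54 genes lay within 0.25. For Socs3 they were Lrmda (distance 0.08, with 57.0, 511 and 529) and Cxadr (distance 0.20), and 5 genes lay within 0.25. With 3 arrays such likeness is a description of 3 numbers per gene.

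The ligands of the pathway were mostly not detected. Of 19 measured ligand genes, 8 read above 50 on any array, and growth hormone itself (Gh) stayed under 50 on all of them, with 40.1 in Ymac-1 as its highest reading. Between HCC and normal liver 0 of the 19 differed, where 15.9% of all genes were higher and 0.749% lower. Set against HCC, the line had 4 higher and 1 lower, where 14.7% and 15.9% of all genes were. Il11 read 51.1 for normal liver, 86.5 for HCC and 645 for Ymac-1, where it was 7.45-fold above HCC. Clcf1 read 25.2, 84.5 and 484, and was 5.73-fold above HCC in Ymac-1. The other two were Lif and the myeloid growth factor Csf2, which read 156 and 259 in Ymac-1 and under 50 in both tissues. Ctf1 (cardiotrophin) read 240.5, 437 and 137, with the line 3.19-fold below HCC. The counts of 4 and 1 were the same under all 4 scalings. Il6 itself reached 59.4 in Ymac-1 and was under 50 in the tissues.

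Of 19 other cytokine receptor genes, 8 were higher and 0 lower in HCC when set against normal liver, where 15.9% and 0.749% of all genes were. Their median was 0.62 on the log2 scale, against 0.02 over all genes. The higher count was 5, 3 and 7 after rescaling, against the 4.79%, 2.94% and 5.26% of all genes. In Ymac-1 relative to HCC, 2 were higher and 5 lower (all genes 14.7% and 15.9%). Osmr, the receptor for oncostatin M that pairs with gp130, read 41.8, 297 and 436, so that HCC was at least 5.94-fold above normal liver. The leptin receptor Lepr read 73.0, 397 and 33.3, and its HCC level was 5.44-fold that of normal liver. Csf2rb, a receptor chain of myeloid cells, read 119, 615 and 11.3. Csf2ra, its partner chain, read 115, 436 and 851, and the line was 1.95-fold above HCC, under the threshold as deposited. In the line, Lepr was at least 7.94-fold and Csf2rb at least 12.3-fold below HCC. Lifr, the receptor for leukemia inhibitory factor, read 842, 761 and 66.7 and lay 11.4-fold below HCC in the line. The receptors that stood above HCC in Ymac-1 were the interferon receptor chains Ifngr1 (164, 706 and 2957, 4.19-fold) and Ifnar1 (733, 911 and 1899, 2.09-fold). Their partner chains were not among them, since Ifngr2 read 1353, 1765 and 1589 and Ifnar2 was under 50 on all 3 arrays. After median centring 4 receptors were higher in the line, Osmr (1.04 on the log2 scale) among them.

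Among the 7 other Janus kinases and Stats, 2 had an HCC level past the threshold, where 15.9% of all genes were higher. They were Stat2 of the interferon pathway (365, 1053 and 196) and the lymphoid kinase Jak3 (19.99, 107 and 36.6), both as deposited only. In the cell line 0 stood above HCC and 4 below, where 14.7% and 15.9% of all genes did. Those below included Stat2 (5.37-fold), Jak3 (at least 2.13-fold) and Stat4 (2.59-fold). The count of 4 became 1, 1 and 2 after rescaling, where 13.6%, 11.1% and 14.2% of all genes were lower. Jak3 was past the threshold as deposited only, and Stat4 was so as deposited and after upper quartile scaling. Of 15 other inhibitors, 5 were higher and 0 lower in HCC (all genes 15.9% and 0.749%), with a median of 0.78 on the log2 scale. After rescaling 1, 0 and 0 were higher (all genes 4.79%, 2.94% and 5.26%) and the median was -0.03, -0.26 and 0.03. Grb10, an adaptor that binds receptor kinases, read 113, 394 and 37.6, and the ubiquitin ligase Cbl read 408, 1153 and 815. Ptprc (CD45), a phosphatase of blood cells, read 127, 293 and 51.1. For Cbl and Ptprc the difference between the tissues was past the threshold as deposited only, and that of Ptprc was -0.08 on the log2 scale after median centring, while that of Grb10 was 0.52. Relative to HCC, 6 of the 15 were higher in the line and 3 lower, against 14.7% and 15.9% of all genes. Socs6 read 254 in Ymac-1 and under 50 in both tissues, and Pias2 read 275, 377 and 1484, so that the line was 3.93-fold above HCC.

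Genes known to respond to growth hormone in liver were counted next, 13 in all. In HCC against normal liver 3 were higher and 1 was lower, where 15.9% and 0.749% of all genes were. After rescaling 1, 0 and 1 were higher and 1, 6 and 2 were lower. The shares of all genes were then 4.79%, 2.94% and 5.26% higher and 3.28%, 11.6% and 3.72% lower. The cell cycle inhibitor Cdkn1a read 1804 for normal liver and 7943 for HCC (4.40-fold, and 0.86 on the log2 scale after median centring), and Egfr read 854 and 2495 (2.92-fold, as deposited only). Fgf21, a liver hormone of fasting, read 1518 and 369 and was 4.12-fold lower in the tumor. Igf1 and Igfals, the circulating growth factor and its serum carrier and both targets of Stat5b, differed by 1.28-fold and 1.03-fold between the tissues as deposited. After rescaling the log2 difference of Igf1 was -0.91, -1.64 and -1.16 and that of Igfals -0.44, -1.32 and -0.84, so that both were past the threshold as lower in HCC after median centring and Igf1 also after upper quartile scaling. In the line 0 of the 13 stood above HCC and 8 below, against 14.7% and 15.9% of all genes. Igfals read 91.8 there, 139-fold below its 12810 in HCC, and Igf1 was under the floor, at least 29.98-fold below its 1499 in HCC. Socs2, also a Stat5 target, read 5328 in the line, within the threshold of normal liver.

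**Figure D3:**
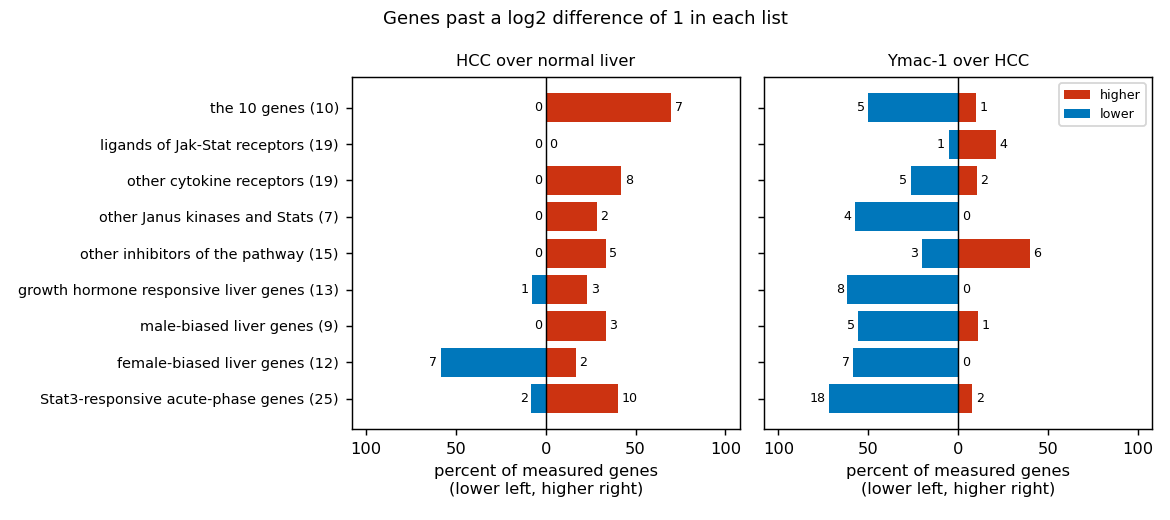
Bars give the percent of the measured genes of each list that were at least 2-fold higher (right) or at least 2-fold lower (left), as deposited, for HCC over normal liver and for Ymac-1 over HCC, with the number of genes at each bar and the number measured in parentheses. In the HCC comparison the female-biased list stands out by its 7 lower genes, and in the Ymac-1 comparison 18 of the 25 acute-phase genes are lower. Over all genes 0.749% are lower in the former comparison and 15.9% in the latter.

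Liver genes that differ between the sexes under the growth hormone pattern included the list whose median for HCC over normal liver lay furthest from 0 among the 8 pathway lists. Of 18 listed genes known to be higher in females 12 were measured. Of these 7 were lower and 2 were higher in HCC, where 0.749% and 15.9% of all genes were. Their median was -3.06 on the log2 scale against 0.02 over all genes. The sulfotransferase Sult3a1 read 12254 for normal liver, 71.7 for HCC and 1.78 for Ymac-1, a 171-fold lower level in the tumor. A1bg, a secreted glycoprotein, read 7847, 54.6 and 3.41 and was 144-fold lower in HCC. The cytochrome P450 gene Cyp3a44 read 17973, 2852 and 6.50 and was 6.30-fold lower. The other four lower genes differed by 11.0-fold (Cyp2b9), 13.7-fold (Cyp2b13), 15.6-fold (Acot3) and 36.8-fold (Hao2). Cyp2b9, Cyp2b13, Cyp3a44 and Sult3a1 have near-identical relatives that a probe can read together, so their separate values are uncertain. Those higher in HCC were Cux2, a female-biased repressor, with 353 in normal liver and 852 in HCC, and Fmo2, with 38.3 and 199. The difference of Cux2 was -0.01 on the log2 scale after median centring. After each rescaling 8 genes of the list were lower in HCC, where 3.28%, 11.6% and 3.72% of all genes were.

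Of 18 listed genes known to be higher in males 9 were measured, of which 6 read above 50 on any array. In HCC 3 of the 9 were higher and 0 were lower (all genes 15.9% and 0.749%), with a median of 0.11. After rescaling the higher count was 2, 1 and 2, the lower count was 1, 2 and 1, and the median was 0 each time. The shares of all genes were then 4.79%, 2.94% and 5.26% higher and 3.28%, 11.6% and 3.72% lower. Mup20, a male urinary protein, read 4409, 21160 and 11.5, so that HCC was 4.80-fold above normal liver, or 0.98 on the log2 scale and just under the threshold after median centring. Mup20 belongs to a family of near-identical genes, so its value is uncertain too. Slco1a1, an uptake transporter, read 14.0, 162 and 7.89, at least 3.23-fold higher in the tumor. Cyp7b1, a male-biased steroid hydroxylase, read 615, 756 and 23.2, and Gstp1 read 2668, 2870 and 8398. Neither differed by the threshold between the tissues as deposited. After rescaling both turned to lower in HCC, and Gstp1 was past the threshold after median centring (-1.18 on the log2 scale). The labels give both tissue donors as female. The X-linked transcript Xist read 464 for normal liver and 499.7 for HCC, and the highest reading of 5 Y-linked genes on any of the 3 arrays was 10.5, so that both tissues matched that label. In Ymac-1, whose sex the labels do not give, Xist read 76.7. These sex check genes were chosen after values of the arrays had been seen.

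**Figure D4:**
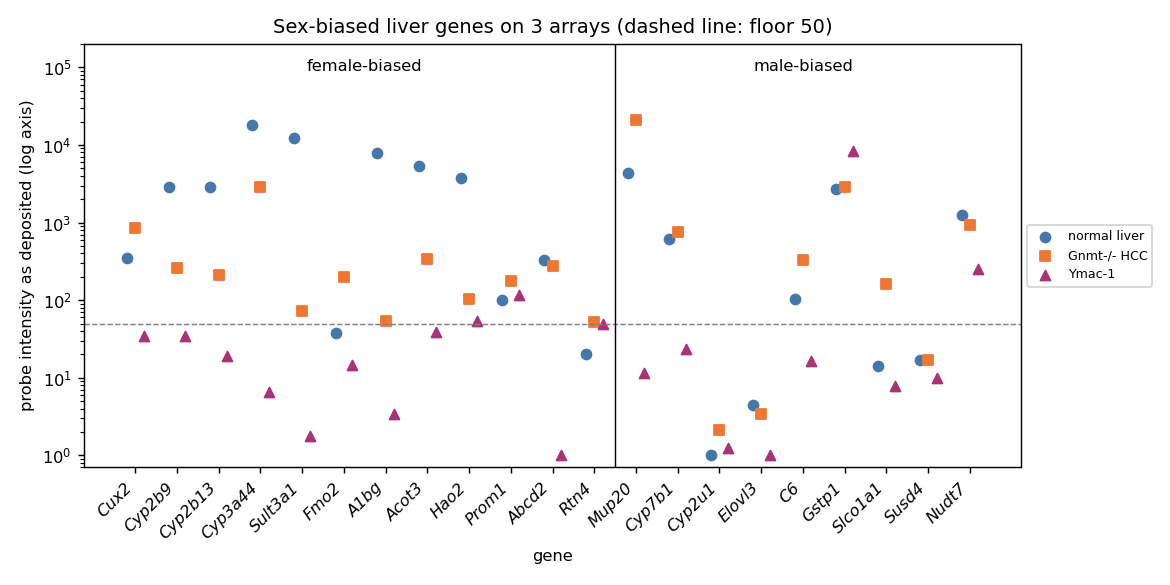
Intensity (log axis) of the measured female-biased and male-biased liver genes on the 3 arrays, 1 point per array, with readings under 1 drawn at 1. Among the female-biased genes 7 of 12 have an HCC point at least 2-fold under that of normal liver, and among the male-biased genes 0 of 9 do, as deposited. Over all genes 0.749% do.

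The acute-phase genes that respond to Stat3 are read beside Socs3. Of 25 measured, 10 were higher and 2 lower in HCC (all genes 15.9% and 0.749%), with a median of 0.80 on the log2 scale. The count of 10 became 7, 2 and 5 after rescaling, where 4.79%, 2.94% and 5.26% of all genes were higher. The iron-binding protein Lcn2 read 546, 16956 and 495, with a 31.0-fold higher level in the tumor. Timp1, a protease inhibitor, read 14.1, 802 and 4932 and its HCC level was at least 16.04-fold that of normal liver. Haptoglobin (Hp) read 20624, 7431 and 87.2 and Saa4 read 5370, 2198 and 1.01, so that both were lower in HCC, by 2.78-fold and 2.44-fold. In the line 18 of the 25 stood below HCC and 2 above (all genes 15.9% and 14.7%), with a median of -5.10. Fga (fibrinogen) and Lrg1 were at least 641-fold and at least 564-fold below HCC, and Saa3 (373) and Timp1 were the 2 that were higher. Most acute-phase genes were thus lower in the line, where the Socs3 reading was within 1.03-fold of that in HCC as deposited. A relation between these readings was not tested.

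Markers of liver cell types also differed between the arrays. In bulk tissue, fewer cells of a type and less RNA per cell cannot be told apart. Of 20 hepatocyte markers, 19 read above 50 in both tissues and 6 did so in Ymac-1. Compared with HCC, 19 of the 20 were lower in Ymac-1, where 15.9% of all genes were, and albumin (Alb) read 48.3 there. Their part in the lower Ghr, Il6ra, Igf1 and acute-phase readings of Ymac-1 was not tested. Of 14 macrophage markers, 10 were higher and 2 lower in HCC, and the summed reading of the list was 8324, 29802 and 3478 on the 3 arrays. Of 9 neutrophil markers 5 were higher in HCC, with sums of 314, 4214 and 74.5, and of 12 endothelial markers 7 were higher, with sums of 8406, 15333 and 478. Of 12 stellate cell and fibroblast markers 5 were higher in HCC, with sums of 16289, 33901 and 209. In the tissues most of these sums was Dcn, which read 13481, 29180 and 90.7. Of 10 lymphocyte markers 2 were higher, with sums of 388, 808 and 164. Of 6 bile duct markers 2 were higher in HCC and of 6 adipocyte markers 1 was. As deposited, 15.9% of all genes were higher in HCC, and after rescaling 4.79%, 2.94% and 5.26% were. After rescaling the higher counts were 7, 4 and 6 for macrophages, 4, 4 and 5 for neutrophils, 2, 2 and 2 for endothelium, 3, 1 and 2 for stellate cells and fibroblasts, and 0, 0 and 0 for lymphocytes. The part of these cells in the higher Socs3, Cish, Stat3 and Bcl6 readings of HCC was not tested. In the line 12 of 14 macrophage and 12 of 12 endothelial markers stood below HCC, where 15.9% of all genes did. The macrophage markers above 50 in the line were Cd14 (2558), Csf1r (546) and Cd68 (247). Of the 6 bile duct markers, 3 stood above HCC in the line and 1 below, under all 4 scalings. As deposited, 14.7% of all genes stood above and 15.9% below. Krt19 was 71.6-fold, Krt7 59.2-fold and Sox9 4.49-fold above HCC in the line as deposited, and Epcam was at least 7.64-fold below.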

How the data were processed

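RNA of 3 samples (normal liver, Gnmt-/- HCC and Ymac-1 cells) was amplified, labelled with Cy5 and hybridised to the Mouse Whole Genome OneArray, 1 array per condition. The deposited values are linear intensities of 26423 probes, from which the authors had subtracted background, so some lie below 0. The scanner software, the method of background subtraction and any scaling between arrays were not stated in the sources read here. Whether the 3 arrays were run together was not stated either. The paper describes a comparison of Ymac-1 with microarray data of liver and Gnmt-/- HCC from an earlier study. A difference of run between the line and the tissues therefore could not be told apart from the differences given here. Probes above 50 numbered 10195 for normal liver, 12540 for HCC and 11408 for Ymac-1. Precision is limited by the number of arrays.

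Symbols came from the platform annotation (21876 probes with 1 symbol, 19084 genes). Intensities under 50 were set to 50 and log2 was taken. The probe with the highest mean stood for a gene. A difference of 1 on the log2 scale was counted. Counting was tested on simulated data with planted changes. The alternatives were quantile normalization, median centring of the arrays, upper quartile scaling, other floors and thresholds, other probe rules and a filter on dim genes. The members and the gene lists were chosen with earlier results of these data known. Besides the members, each list was represented by its 2 most positive and 2 most negative genes past the threshold in HCC over normal liver and in Ymac-1 over HCC, and likeness of pattern was given for the 3 members of widest range. Gh, Il6, Il6st, Jak1, Stat5a, Lif, Csf2, Csf2ra, Ifngr2, Ifnar2, Alb and Dcn were chosen after their values were seen. So were the macrophage and bile duct markers and the other female-biased genes named. Promoter sequences were taken from RefSeq tables. Python 3.11.15, pandas 2.3.3, numpy 2.4.6 and matplotlib 3.10.9 were used.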

Additional observations from a re-analysis of the deposited data

How the results depend on the processing

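Scaling decided most counts for HCC over normal liver. As deposited 7 genes were higher and 0 lower. The higher count was 3 after quantile normalization, 1 after centring each array on its median (with 2 lower, Ghr and Stat5b), 2 after upper quartile scaling and 3 at a log2 threshold of 1.5. After median centring Socs1 turned to -0.097 and Bcl6 to -0.064. Over all genes, higher calls were 95.5% of calls in this comparison as deposited and 59.4%, 20.2% and 58.6% under the other 3 scalings. They were 71.2%, 53.6%, 47.7% and 52.2% for Ymac-1 over normal liver, and 48.1% as deposited and 64.5% after median centring for Ymac-1 over HCC. With the dimmest probe of each gene 1 gene, Ghr, was lower in HCC, and 3 instead of 5 stood below HCC in Ymac-1. That count was 8 at a threshold of 0.5. For Ymac-1 over normal liver, the lower count of 3 became 5 under each other scaling and at a threshold of 0.5. Of 210 differences of the 10 genes recomputed under alternatives, 145 moved by less than 1.5-fold, 63 by more, and 2 that had passed the threshold reversed. Counting all differences, past the threshold or not, 7 of 30 changed sign under at least 1 of the other scalings. The cause of the brighter HCC and Ymac-1 arrays was not tested. No paired analysis was possible because each condition had 1 array. Readings under 50 limit Stat3 in Ymac-1 to a bound and leave Socs1 close to background.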
